A study of Mus musculus with 4 samples.

Results

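Integrins, the matrix proteins they bind and the ADAM, ADAMTS and ADAMTS-like proteins that cut or organise matrix and cell surface proteins were followed in 2 libraries of transposon insertions. Members were taken by gene symbol: integrin alpha and beta chains with Itgbl1, collagens, laminins, ADAM, ADAMTS and ADAMTS-like genes, thrombospondins, and Fn1, Tnc, Tnr and Hspg2. In all, 79 of the 5614 genes with a read in either library were members. RefSeq's mouse gene annotation (GRCm38.p6) holds 148 genes that match by symbol, so 53.4% of them were listed, against 21.4% of all its genes with a curated transcript.

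The cells were mouse haploid neural stem cell-like cells of a 129Sv background, which carry a single chromosome set. They were derived from haploid embryonic stem cells through embryoid bodies in N2B27 medium with FGF2 and EGF (20 ng/ml each), LDN193189 (300 nM), SB431542 (10 μM) and a ROCK inhibitor (Y-27632, Thiazovivin or both), and were then plated on laminin at 100 ng/ml over poly-D-lysine at 100 μg/ml. For mutagenesis they received a piggyBac gene trap plasmid with its transposase, G418 selected the cells with a trapped gene, and splinkerette PCR (a nested PCR from the transposon into an adapter ligated to the cut genome) was sequenced on genomic DNA. Library 1 and library 2 each pool 2 samples in 1 table. The sample titles of each library end in 3 and in 5, which the labels do not explain, so whether an insertion could be read in both samples of a library is not known here. The labels give no genotype, treatment or time that differs between them, and state the culture and the transfection alike for all 4 samples. There is therefore no replicate behind any value, and every comparison is between 2 pools of reads. Nonredundant reads totalled 55442 over 4184 genes in library 1 and 48750 over 3168 genes in library 2. They are PCR reads without molecular identifiers, and the intervals below cover only the error of counting them. The tables give a gene and its reads, with no position, so whether a read lay in an exon, an intron or a UTR is not known here.

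Integrins are pairs of an alpha and a beta chain that span the cell membrane and tie the matrix outside to the actin cytoskeleton inside. Laminins, type IV collagens and perlecan build the basement membrane, a sheet that neural stem cells contact in the developing and adult brain, and laminin is a common coating for their culture. ADAM proteins are membrane-anchored and many shed other surface proteins, whereas ADAMTS enzymes are secreted and cut collagen precursors and proteoglycans. Insertion reads on genomic DNA show which genes carry the transposon and do not measure expression, so no cell type was called from Itgb3, Adamts2 or other members.

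The members' reads lay in a few genes, and different genes led each library. In library 1 the neuronal collagen gene Col25a1 and the integrin-like gene Itgbl1 were in front, and in library 2 the integrin gene Itgb3 and the procollagen protease gene Adamts2. Members listed in library 1 numbered 61 and held 878 nonredundant reads, 1.58% of the library (exact Clopper-Pearson 95% interval 1.48 to 1.69). Members listed in library 2 numbered 48 and held 1492 reads, 3.06% (2.91 to 3.22). The leading pair made up 55.7% of the members' reads in library 1 and 76.1% in library 2. Without its leading pair, the members held 0.702% of library 1 and 0.730% of library 2, so the larger share in library 2 rested on Itgb3 and Adamts2.

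In total 16 members reached 10 or more nonredundant reads in a library, 10 of them in library 1 and 6 in library 2, and 0 did so in both, as 8.62% of all genes at 10 or more reads in library 1 and 14.6% of those in library 2 did. Of the 148 members 6.76% reached 10 reads in library 1 and 4.05% in library 2, against 1.9% and 1.12% of all 26220 reference genes with a curated transcript and 2.37% and 1.4% of protein coding genes. Many members are long genes, and their shares by length class are given below. The gap around the minimum was wide: in library 1 the members nearest to it had 17 reads (Adamts9) and 8 reads (Adam12), and in library 2 they had 17 (Col27a1) and 6 (Adam12 and Adamts9).

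**Figure D1:**
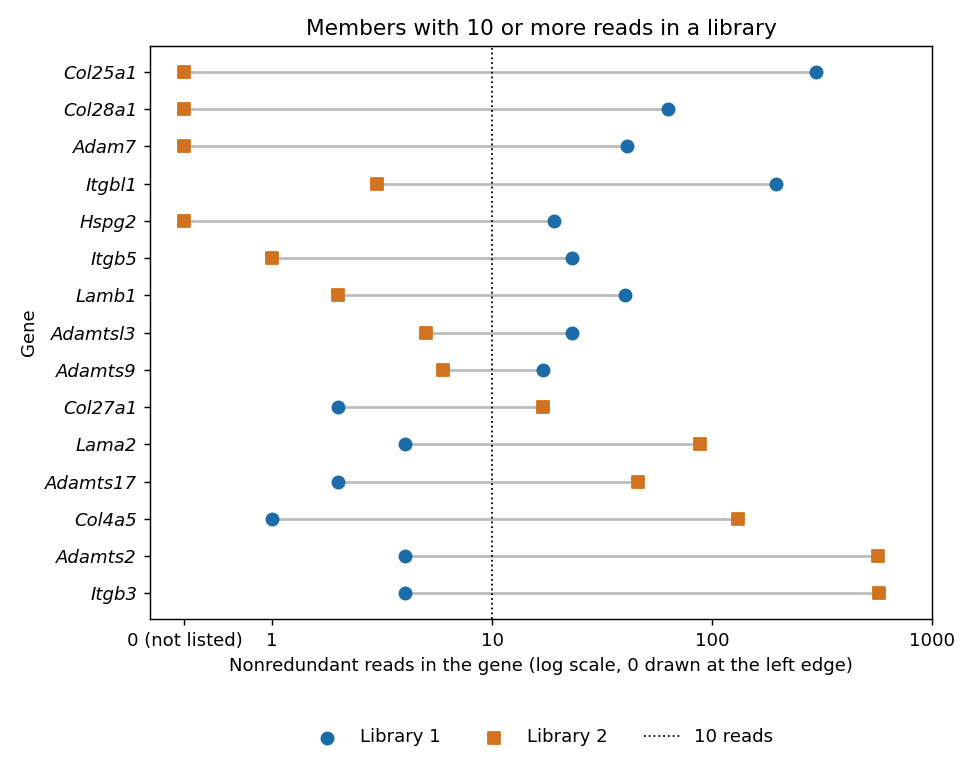
Nonredundant reads (horizontal log axis, 0 drawn at the left edge) of 15 of the 16 members with 10 or more reads in a library, with a circle for library 1 and a square for library 2. Each gene drawn has 10 or more reads in 1 library alone, 9 genes in library 1 and 6 in library 2.

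Among the integrin beta chains, Itgb3 held most reads. It encodes the beta 3 chain, which pairs with the alpha v chain as a receptor for vitronectin and with the alpha IIb chain on platelets. Itgb3 had 4 reads in library 1 and 573 in library 2, where it was 1.18% of all nonredundant reads (95% interval 1.08 to 1.28) and the 10th gene by reads. The ratio of its library shares, library 1 over library 2, was 0.00614 (exact conditional 95% interval 0.00167 to 0.0158). Itgb5, whose beta 5 chain also pairs with alpha v and binds vitronectin, had 23 reads in library 1 and 1 in library 2, a ratio of 20.2 (3.28 to 833). These 2 vitronectin receptor chains thus led in opposite libraries.

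Itgbl1 encodes a secreted protein with repeats like those of integrin beta chains. It had 194 reads in library 1 and 3 in library 2, a ratio of 56.9 (19.2 to 278), and was the 63rd gene of library 1. In the GRCm38.p6 annotation Itgbl1 overlaps Fgf14, a gene of a fibroblast growth factor homologue in neurons, which had 3 reads in library 1 and 96 in library 2. How the authors assigned reads in overlapping genes is not given in the sources used here, and the part of that assignment in either count was not tested. Itgb7, a leukocyte beta chain, had 1 read in library 2, and the other 5 beta chain genes (Itgb1, Itgb2, Itgb4, Itgb6 and Itgb8) were listed in neither library. They are named here after their values were seen. Together with Itgbl1, 4 of 9 genes (44.4%) were listed and 3 (33.3%) reached 10 reads, against 21.4% and 2.86% of all reference genes. These 9 genes were not set against genes of their own length.

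The alpha chains were widely listed over both libraries together, with few reads per gene. Of 18 alpha chain genes 16 (88.9%) were listed, 14 in library 1 and 6 in library 2, against 21.4% of all reference genes. None had more than 4 reads, while 2.86% of all reference genes reached 10 or more. The alpha chains were not set against genes of their own length. Their reads summed to 22 in library 1 and 9 in library 2. Itga9, which pairs with the beta 1 chain and binds tenascin, had 2 reads in library 1 and 3 in library 2. Itga8, another partner of the beta 1 chain, had 4 reads in library 1 and none in library 2. The alpha chain genes that partner Itgb3 were listed in library 1 alone, Itgav with 3 reads and Itga2b with 1. In 8 of the 16 listed alpha chain genes the record was a single read over both libraries.

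Col25a1 encodes a collagen that spans the membrane of neurons and was first found in amyloid plaques. It had 295 reads in library 1, 0.532% of the library (95% interval 0.473 to 0.596), and none in library 2. Against a floor of 3 reads in library 2 it was 86.5-fold higher in library 1, a value without an interval. Col28a1, a collagen with von Willebrand factor A domains, had 63 reads in library 1 and none in library 2. Against the same floor it was 18.5-fold higher in library 1. Col4a5, a type IV collagen chain of basement membranes that is mutated in Alport syndrome, had 1 read in library 1 and 131 in library 2, a ratio of 0.00671 (0.000169 to 0.0381). The neighbouring gene Col4a6, which encodes a chain of the same collagen type, had 3 reads in library 1 and 1 in library 2. Col4a5 is given for its many reads and Col4a6 is not, so fewer reads in Col4a6 follow from that choice. Col27a1, a fibrillar collagen of cartilage, had 2 reads in library 1 and 17 in library 2, a ratio of 0.103 (0.0116 to 0.436). The other 18 listed collagen genes had at most 4 reads in a library. A further 22 of the 44 collagen genes were listed in neither library. Thus 50% of the collagen genes were listed and 4 (9.09%) reached 10 reads, against 21.4% and 2.86% of all reference genes. The collagen genes were not set against genes of their own length.

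Laminin chains gave 3 genes with 10 or more reads, 2 in library 1 and 1 in library 2. Lamb1, the widely used beta 1 chain, had 40 reads in library 1 and 2 in library 2, a ratio of 17.6 (4.56 to 150). Lama2, the alpha 2 chain of muscle and peripheral nerve whose loss causes a muscular dystrophy, had 4 reads in library 1 and 88 in library 2, a ratio of 0.0400 (0.0107 to 0.106). Of 11 laminin genes 7 (63.6%) were listed and 3 (27.3%) reached 10 reads, against 21.4% and 2.86% of all reference genes. The laminin genes were not set against genes of their own length. The 4 listed ones below 10 reads had at most 2 in a library. Hspg2, which encodes the basement membrane proteoglycan perlecan, had 19 reads in library 1 and none in library 2. Against the floor of 3 reads it was 5.57-fold higher in library 1. Tnr, the tenascin of the brain's perineuronal nets, and Thbs2, a thrombospondin, had 1 read each, both in library 2. Fn1 and Tnc were listed in neither library, as were Thbs1, Thbs3 and Thbs4. These 5 genes are named after their values were seen.

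Of the proteases, ADAMTS genes held 31 nonredundant reads in library 1 and 623 in library 2, and most of these 623 lay in Adamts2. Adamts2, which removes the amino-terminal propeptide of fibrillar procollagens, had 4 reads in library 1 and 563 in library 2, 1.15% of that library (95% interval 1.06 to 1.25), a ratio of 0.00625 (0.00170 to 0.0161). Adamts17, mutated in a disorder of eye and stature, had 2 reads in library 1 and 46 in library 2, a ratio of 0.0382 (0.00450 to 0.146). Adamts9, which cleaves the proteoglycans versican and aggrecan, had 17 reads in library 1 and 6 in library 2, a ratio of 2.49 whose interval (0.937 to 7.72) includes equality. Adamtsl3, a secreted relative without a protease domain, had 23 reads in library 1 and 5 in library 2, a ratio of 4.04 (1.504 to 13.6). Its relatives Adamtsl1 (1 read in library 1 and 2 in library 2) and Adamtsl4 (1 in library 1 alone) stayed near single reads.

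Of 34 ADAM genes 13 (38.2%) were listed, 11 in library 1 and 7 in library 2, against 21.4% of all reference genes. They were not set against genes of their own length. Adam7, a gene of the epididymis whose product is not known to act as a protease, had 41 reads in library 1 and none in library 2. Against the floor of 3 reads it was 12.0-fold higher in library 1. Adam12, a protease of fusing muscle and placenta, had 8 reads in library 1 and 6 in library 2 (ratio 1.17, interval 0.357 to 4.10). Adam22, a receptor without protease activity for the secreted LGI proteins at synapses, had 3 reads in library 1 and 2 in library 2. The remaining 10 listed ADAM genes had at most 3 reads in a library.

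**Figure D2:**
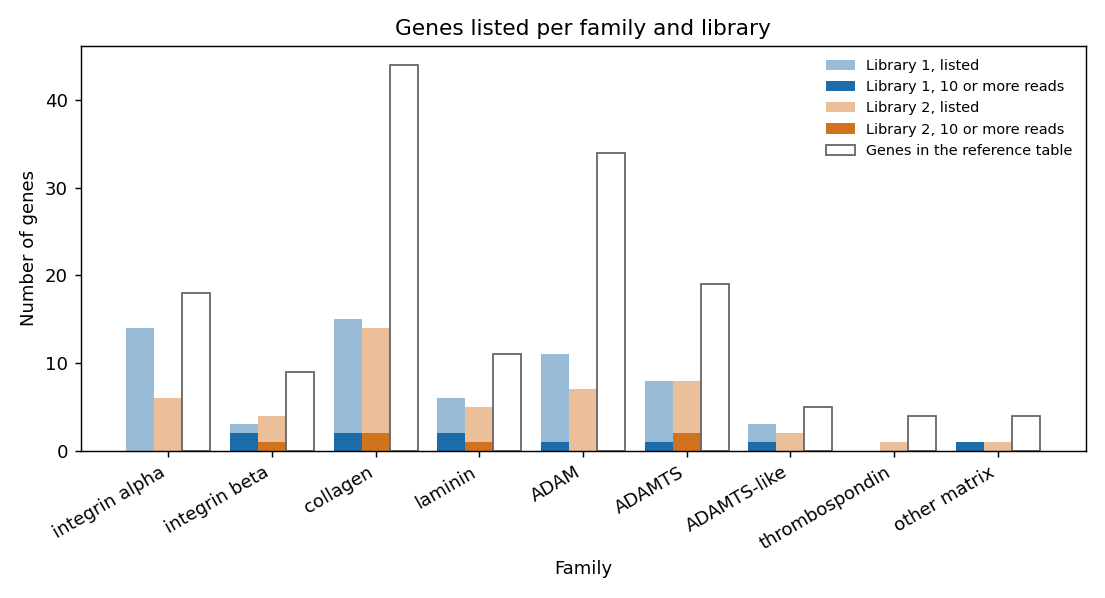
Number of genes (vertical axis) per family with at least 1 read (pale bars) and with 10 or more reads (full colour) in library 1 and library 2, beside the number of genes of that family in the reference table (open bars). Alpha chains are listed widely (14 in library 1, 6 in library 2) with 0 genes at 10 reads, whereas the integrin beta bars, which hold 8 beta chain genes and Itgbl1, include 3 genes at 10 reads in a library (Itgb3, Itgb5 and Itgbl1).

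A lean to a library was called at a 4-fold ratio of shares with 10 or more reads in the higher library, and with counts under 3 in the other library set to 3. By this rule 9 of the 79 members (11.4%) leaned to library 1 and 6 (7.59%) to library 2, against 7.05% and 4.22% of all 5614 listed genes. With 1 pool per library this describes the pools and has no test. Adamtsl3 lay just inside the 4-fold limit and Adamts9 outside it. Among the 16 members with 10 or more reads in a library, 1 (Adamts9) had no lean. Over all listed genes 396 leaned to library 1 and 237 to library 2, beside 750 reference genes with 10 or more reads in either library. Most genes at that level thus leaned, among members and among all genes. The shares of listed genes also depend on how many reach 10 reads.

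The libraries shared 30 members, which is 49.2% of the 61 members of library 1 and 62.5% of the 48 members of library 2. Over all genes the shared ones were 41.5% of library 1 and 54.9% of library 2. All 6 members with 10 or more reads in library 2 had 1 to 4 reads in library 1, whereas 5 of the 10 with 10 or more reads in library 1 were not listed in library 2. For all genes with 10 or more reads, 56.3% of those in library 1 and 70.1% of those in library 2 were listed in the other library. Single reads were common: 25 of the 61 members in library 1 (41.0%) and 26 of 48 in library 2 (54.2%) had exactly 1 read, against 53.7% and 59.7% of all listed genes.

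Length went with listing in both libraries. All 26220 reference genes were put in 10 classes of equal size by their length in GRCm38.p6, and 59 of the 148 members (39.9%) fell in the longest class. In that class 62.7% of members were listed in library 1 and 57.6% in library 2, against 65.1% and 52.1% of all genes of the class. Shares at 10 or more reads in the class were 11.9% of members in library 1 and 8.47% in library 2, against 11.3% and 6.25% of all genes. Over all lengths 41.2% of members were listed in library 1 and 32.4% in library 2, against 15.9% and 12.1% of all genes, or 19.9% and 15% of protein coding genes. In the next class, with 23 members, 8.70% of members reached 10 reads in library 1 and 4.35% in library 2, against 3.32% and 2.67% of all genes. There, 56.5% of members were listed in library 1 and 34.8% in library 2, against 35.6% and 25.02% of all genes. The exact 95% interval of the members' share in library 1 was 34.5 to 76.8. It counts genes, which are not replicates, and the difference was not tested. In the longest class the members were thus listed about as often as other genes, while over all lengths they were listed more often. In class 8, with 21 members, 1 member (Adam7, 4.76%) reached 10 reads in library 1 and 0% in library 2, against 1.72% and 0.725% of all genes. Listed there were 33.3% of members in library 1 and 9.52% in library 2, against 21.1% and 16.9% of all genes. A further 45 of the 148 members (30.4%) lay in classes 2 to 7, counted from the shortest. Of the 13 members in class 7, 7.69% were listed in library 1 and 15.4% in library 2, against 15.3% and 11.9% of all genes.

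**Figure D3:**
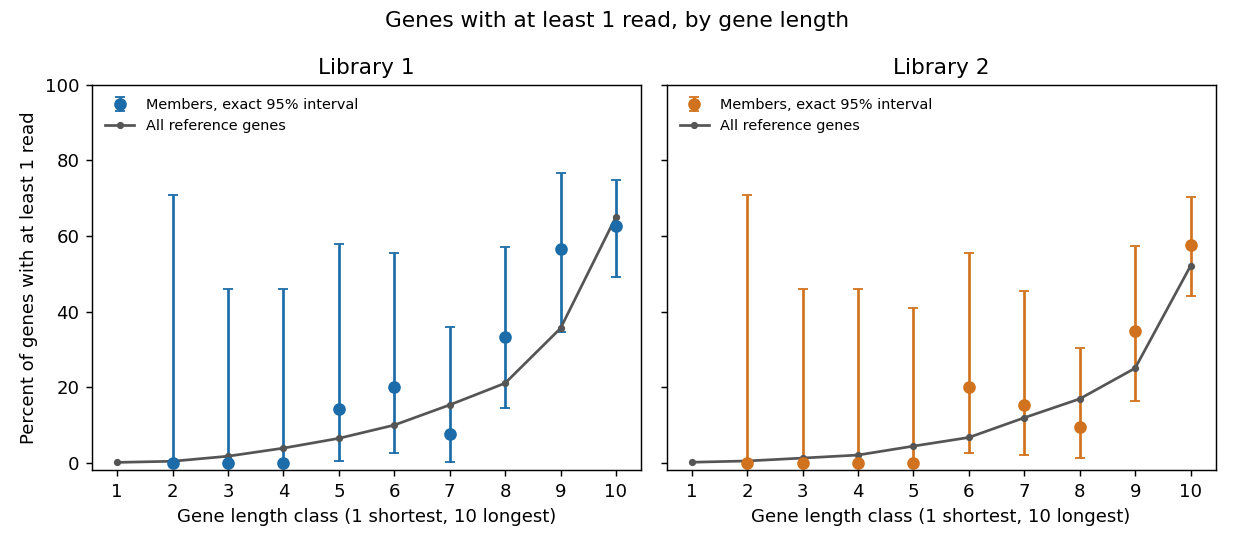
Percent of genes with at least 1 read (vertical axis) by gene length class (horizontal axis, 10 classes of equal size over all reference genes) for members (points, with exact Clopper-Pearson 95% intervals for the number of genes) and for all reference genes (line), in library 1 and library 2. In the longest class, with 59 members, 62.7% of members in library 1 and 57.6% in library 2 lie near the line, at 65.1% and 52.1%.

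Per gene length the order of the members with 10 or more reads changed in part. In library 2 Itgb3, Adamts2 and Col4a5 stayed in front in the order of their reads. Itgb3 had 917 reads per 100 kb in library 2 and was the 19th of the 294 genes with 10 or more reads there. Adamts2 had 274 reads per 100 kb and was the 45th, and Col4a5 had 61.3 and was the 112th. Lama2, the 85th gene of library 2 by reads, had 13.8 reads per 100 kb and was the 204th. In library 1 Adam7, the shortest of these members, came first among members with 113 reads per 100 kb, the 128th of 499 genes, ahead of Col25a1 with 70.3. Itgb3 in library 2 therefore had the highest reads per length of the 16 members with 10 or more reads in a library.

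Genes next to the leading members were also counted. The members were chosen for 10 or more reads and the neighbours were not, so fewer reads in the neighbours follow from that choice. Of the 32 genes annotated on either side of the 16 members, 14 (43.8%) were listed in either library and 2 (6.25%) had 10 or more reads, against 21.4% and 2.86% of all reference genes. The lengths of the neighbours were not compared. One of these, named after its values were seen, was Arhgap18 next to Lama2, with 46 reads in library 2 alone, the library where Lama2 leads. The genes on either side of Itgb3, Myl4 and Efcab3, were not listed. Next to Adamts2, Rufy1 had 3 reads in library 2 and Zfp354c none.

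The 2 read columns did not rise in step. Redundant reads numbered 6.51 for each nonredundant read over the members of library 1 and 17.1 over those of library 2, against 15.8 and 26.7 over all genes of each library. Among the members with 10 or more reads the ratio ran between 1.09 (Itgb5) and 11.1 (Col25a1) in library 1, and between 1.06 (Col27a1) and 29.6 (Itgb3) in library 2. Its median over these members was 4.66 in library 1 and 8.37 in library 2, against 4.53 and 4.55 over all genes with 10 or more reads. The ratio of sums covers all listed members and the median only those with 10 or more reads, so the 2 measures are not alike. In library 1 the medians were nearly equal. Itgb3 held 16985 redundant reads in library 2, the 8th gene by that column, and Adamts2 held 5338, the 19th, although their nonredundant reads were nearly equal. Itgbl1 in library 1 had 384 redundant reads for its 194 nonredundant ones, a ratio of 1.98, whereas Col28a1 had 616 for 63, a ratio of 9.78. Both columns were equal in 38 of the 61 members of library 1 (62.3%) and 20 of the 48 of library 2 (41.7%), against 56.4% and 56.2% of all listed genes.

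**Figure D4:**
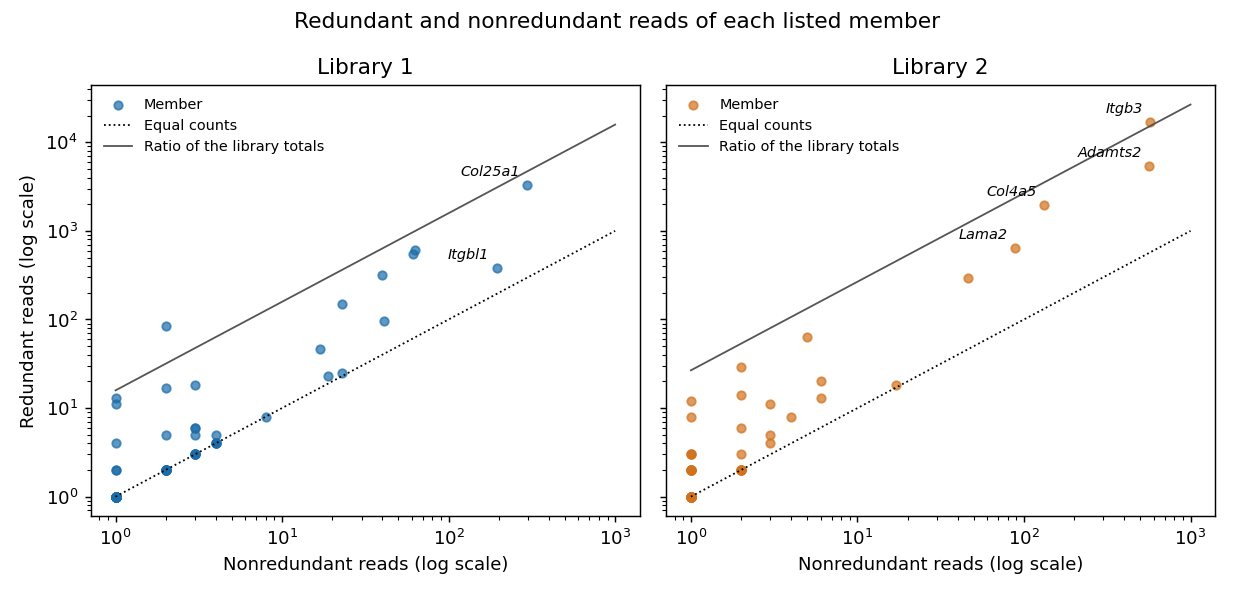
Redundant reads (vertical log axis) against nonredundant reads (horizontal log axis) of each listed member in library 1 and library 2, with a dotted line at equal counts and a solid line at the ratio of the library totals (15.8 in library 1, 26.7 in library 2). Itgb3 lies just above the solid line of library 2 at a ratio of 29.6, while Itgbl1 in library 1 lies near equal counts at 1.98.

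Other genes of adhesion and matrix were followed through 4 further lists. Of 22 genes of the integrin adhesion complex 13 (59.1%) were listed, 10 in library 1 and 8 in library 2, and 2 (9.09%) reached 10 reads, against 21.4% of all reference genes listed and 2.86% at 10 reads. The lists were not set against genes of their own length. Tns1, a tensin that links integrins to actin, had 56 reads in library 1 and 3 in library 2, and Bcar1, a docking protein of focal adhesions, had 50 in library 1 alone. The focal adhesion kinase gene Ptk2 had 3 reads in library 1 and 2 in library 2, Parva had 2 and 1, and Fermt3 1 and 1 in the same order. Of 26 other matrix genes 14 (53.8%) were listed, 12 in library 1 and 9 in library 2, and 2 (7.69%) reached 10 reads, both in library 2. Reln, which encodes the secreted guide of migrating neurons, had 4 reads in library 1 and 34 in library 2, and Fras1, a basement membrane protein, had 3 and 13. In library 2 Fras1 had 2729 redundant reads for its 13 nonredundant ones, and Reln had 142 for its 34. Npnt, an integrin ligand, had 7 reads in library 1 alone, Frem2 had 3 in each library, and Fbn2 had 1 in library 1 and 4 in library 2.

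Of 20 other matrix proteases and inhibitors 6 (30%) were listed, and of 18 genes of collagen processing 6 (33.3%), against 21.4% of all reference genes. Reads of the first list summed to 8 in library 1 and 4 in library 2, led by the membrane protease gene Mmp24 with 3 and 1. After it came the collagen propeptide protease genes Tll1 (2 in library 1 and 1 in library 2) and Tll2 (1 in each), then Htra1 with 1 in library 1 and Reck with 1 in library 2. Reads of the second list summed to 12 in library 1 and 1 in library 2. Pcolce2 and the collagen lysine hydroxylase gene Plod2 had 4 each and P3h2 had 2 in library 1 alone, while P3h1 had 1 in library 1 and Loxl4 1 in library 2. Neither list held a gene with 10 or more reads, a level that 2.86% of all reference genes reached in either library.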

How the data were processed

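The authors deposited 2 tables, one per library, each with raw whole-number counts of nonredundant and of redundant reads per gene, not normalized, per the file headers and the values. CASAVA, BWA and build mm9 are named, without versions, per the submitters' processing notes. The rules for assigning reads to genes, for filtering and for calling a read nonredundant are unstated: not given in the sources used here. The main unit was the nonredundant read count. Depth was 55442 reads in library 1 and 48750 in library 2.

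Genes were matched to RefSeq (GRCm38.p6) by transcript, symbol or synonym (4182 of 4184 and 3167 of 3168 matched). Because this is not the authors' build, only names, order, overlap and length were used and no coordinates are given. Lengths per 100 kb are approximate for the same reason. Sequences of insertion sites were not analysed here. Shares have exact Clopper-Pearson intervals at 95% and ratios of shares exact conditional binomial ones, computed with SciPy 1.17.1 in Python 3.11.15. A gene without reads in a library was set against a floor of 3 reads in that library. The fold given for such a gene has no interval and is not a lower limit. No test was run, since each library is 1 pool.

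Named genes are the members with 10 or more reads in a library, those in both libraries with a sum of 10 or more, up to 3 per family by summed reads, and up to 5 per other gene list. The members and lists were chosen with earlier results of these data known. One gene that this rule names is not reported here by name and remains in the counts. Alternatives were other read minima, folds, totals and backgrounds, and redundant reads.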

Additional observations from a re-analysis of the deposited data

How the results depend on the processing

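No paired analysis was possible because the 2 samples of a library share 1 column of reads, and for the same reason no sample could be left out in turn. At a minimum of 2 nonredundant reads, 36 members remained in library 1 and 22 in library 2. At 10 or more redundant reads there were 13 members in library 2. With redundant reads, members held 0.652% of library 1 and 1.96% of library 2. With the 10 other genes with most reads left out of each total, they held 1.89% and 5.30%, and without the leading member 1.05% and 1.89%. The share was higher in library 2 under each of these 3 settings. With redundant reads 14 members leaned to library 1. Under the other minima, folds and totals, and with protein coding genes only, the counts of members stayed within a factor of 1.5 of the values reported. With the reduced totals 7 members leaned to library 1, and the log2 ratio fell to 1.48 for Adamtsl3 and 1.94 for Hspg2, below a 4-fold difference. With redundant reads 14 of the 15 leaning members kept their lean to the same library. Adamtsl3 then fell below 4-fold, at a log2 ratio of 1.83, and Adamts9 rose above it, at 2.42. The log2 ratio of the 16 leading members kept its sign with reduced totals and with redundant reads. Depth limits most members: the counting intervals of 1 read and of none overlap, and PCR copies cannot be told from separate insertions.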
